A study of Mus musculus with 24 samples.

Results

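The hyaluronan matrix of cartilage was followed through 8 genes, chosen by symbol: the core proteins Acan (aggrecan) and Vcan (versican), the link proteins Hapln1 and Hapln3, the hyaluronan synthases Has1, Has2 and Has3, and the hyaluronan receptor Cd44. All 8 were found among the 18052 genes measured in sorted skeletal stem cells and among the 20889 genes with a usable probe set in the second table, which held bulk tissue and sorted cells of factor-treated joints.

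The 24 Affymetrix arrays came from the distal femur, the knee end of the thigh bone, of C57BL/6J mice. Sorted mouse skeletal stem cells (mSSCs) gave 4 arrays of newborns at postnatal day 3, 3 arrays of adults with microfractured joints and 3 arrays of uninjured adults. Bulk bone gave 3 newborn, 3 microfractured adult and 5 uninjured adult arrays, and mSSCs of microfractured adult joints that had received BMP2, VEGFR1 or PBS gave 1 array each. Adults were 9 to 25 weeks old, so age within a group was not fixed. Microfracture is surgery that perforates the bone under joint cartilage. BMP2 is a bone- and cartilage-inducing growth factor, VEGFR1 is a receptor that binds VEGF, and PBS is the saline vehicle. The sort gate was CD45-, TER119-, TIE2-, ITGAV+, THY1-, 6C3- and CD105-, where ITGAV is an integrin chain. Each sorted sample held only 500 to 1000 cells, and RNA was amplified in 2 rounds. Nothing in the labels ties replicates to different animals, and p-values here cover only the spread between arrays, part of which may be technical.

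Hyaluronan is a long unsulfated sugar chain that HAS enzymes spin out through the cell membrane from activated sugars. Aggrecan, the main proteoglycan of cartilage, carries many chondroitin sulfate chains and docks onto hyaluronan, where a link protein locks it in place. The resulting aggregates hold water and let cartilage bear load. Versican binds hyaluronan in the same way and is typical of embryonic mesenchyme, loose connective tissue and healing tissue. CD44 is the main cell-surface receptor for hyaluronan and is also abundant on leukocytes.

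In the RefSeq annotation of GRCm38.p6, Acan and Hapln3 lay next to each other on chromosome 7 and Hapln1 and Vcan next to each other on chromosome 13, with 0 protein-coding genes starting between the partners. Has3 lay on chromosome 8, Has2 on 15, Has1 on 17 and Cd44 on 2. RefSeq promoters were at hand for 6 of the 8 genes. The 250 bases before the annotated start are shown for the neighbouring pairs, because Hapln1 and Vcan moved in opposite directions in newborn cells while Acan and Hapln1, on different chromosomes, moved together. Capitals mark matches, on either strand, to a SOX core (ACAANG), a GC box (GGGCGG), an AP-1 site (TGANTCA) or a TATA box (TATAAA).
Acan, chr7:79052976-79053225, plus strand: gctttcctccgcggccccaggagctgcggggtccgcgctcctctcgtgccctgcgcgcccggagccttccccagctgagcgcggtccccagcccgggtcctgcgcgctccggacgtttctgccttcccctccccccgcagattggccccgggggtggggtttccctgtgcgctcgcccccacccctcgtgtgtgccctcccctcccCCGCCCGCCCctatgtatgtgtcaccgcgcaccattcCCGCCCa
Hapln3, chr7:79131019-79131268, minus strand: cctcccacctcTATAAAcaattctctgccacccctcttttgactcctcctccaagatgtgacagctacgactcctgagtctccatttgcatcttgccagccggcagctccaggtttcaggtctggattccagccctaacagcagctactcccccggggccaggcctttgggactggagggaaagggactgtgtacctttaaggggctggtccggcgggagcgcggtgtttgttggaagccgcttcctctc
Hapln1, chr13:89540386-89540635, plus strand: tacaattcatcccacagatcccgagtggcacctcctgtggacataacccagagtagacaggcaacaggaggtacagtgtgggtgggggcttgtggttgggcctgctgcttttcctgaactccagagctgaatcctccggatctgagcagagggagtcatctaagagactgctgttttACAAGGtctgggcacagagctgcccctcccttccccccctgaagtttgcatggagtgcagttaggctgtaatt
Vcan, chr13:89742513-89742762, minus strand: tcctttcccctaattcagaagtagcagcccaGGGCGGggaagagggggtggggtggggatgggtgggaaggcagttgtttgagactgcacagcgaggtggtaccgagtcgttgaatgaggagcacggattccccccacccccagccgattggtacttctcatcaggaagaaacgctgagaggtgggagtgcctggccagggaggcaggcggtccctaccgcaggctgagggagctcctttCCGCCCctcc
The Acan window held 3 GC boxes, 2 of them overlapping each other, and was 74.4% G and C. The Vcan window held 2 GC boxes, the Hapln1 window 1 SOX core and the Hapln3 window 1 TATA box far upstream of the start. No AP-1 site was found in these windows, and no match overlapped that of another motif. Among 32851 RefSeq promoter windows of the same length, 36.3% held the SOX core, 32.7% the GC box, 12.4% the TATA box and 6.75% the AP-1 site. A match describes letters and does not show binding.

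Sorted-cell values were MAS5 intensities, a linear brightness per gene that cannot be compared between genes, and differences below are on the log2(intensity + 16) scale with limma's standard error. A difference was called when its p-value, adjusted over all 10893 genes tested, was under 0.05. The arrays did not share 1 background. The 95th percentile of 63 olfactory and vomeronasal receptor genes, taken as a floor, averaged 107.8 in newborns, 142.2 after microfracture and 534.0 in uninjured adults. Ptprc, which encodes the CD45 excluded by the sort, had 58.7 ± 21.1 intensity units in newborns, 651 ± 132 after microfracture and 3462 ± 367 in uninjured adults (SD, n = 4, 3 and 3). The 15 myeloid markers summed to 3713 to 4787, 13936 to 42446 and 64087 to 102667 in the same groups, with 0 of them listed at 0. Itgav was present at 830 ± 74.9, 1339 ± 259 and 1050 ± 384 (SD), and Thy1 was at 8.6 to 46.0 on average. Enpep, which encodes the 6C3 excluded by the sort, read 60.2 ± 13.5 in newborns, 400.5 ± 141.9 after microfracture and 171.5 ± 47.4 in uninjured adults (SD), and its lowest microfractured value of 268.7 was above the floor of each of those arrays. Centring each array on its median, in place of the deposited scale, raised the median difference of all genes by 0.65 for microfractured against uninjured cells and by 0.70 for newborn against uninjured cells. Of all calls, 84.0% were then higher after microfracture, against 40.3% on the deposited scale, and 76.1% were higher in newborns, against 46.1%.

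Acan was highest in newborn cells. It read 12064, 12964, 11734 and 10016 intensity units in the newborn arrays, 8528, 8042.5 and 8383 after microfracture, and 7073, 7329.5 and 5400.5 in uninjured adults. The 3 groups did not overlap, in the order newborn, microfractured, uninjured. The newborn rise over uninjured adults was 0.83 ± 0.18 on the log2 scale, or 1.78-fold (adjusted p = 0.00162, limma). Against microfractured adults the newborn difference was 0.48 ± 0.18 (adjusted p = 0.0456), and this call ended in 10 of 20 alternatives, among them no filter on low genes (adjusted p = 0.109). The difference of 0.35 ± 0.19 between microfractured and uninjured adults did not pass (adjusted p = 0.173), and passed at 1.00 when arrays were centred on their medians (adjusted p = 0.00141).

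Vcan ran the other way. Its intensity was 889.6, 876, 882 and 955.5 in newborns, 1569.9, 1861 and 2127 after microfracture and 1923, 1719 and 1287 in uninjured adults. Every newborn array was below every adult array, and the adult groups overlapped. Vcan was 2.02-fold lower in newborn than in microfractured cells (log2 difference -1.02 ± 0.18, adjusted p = 0.000624, limma) and 1.79-fold lower than in uninjured cells (-0.84 ± 0.18, adjusted p = 0.00159). With arrays centred on their medians the newborn difference from uninjured cells shrank to -0.13 and lost its call (adjusted p = 0.595), while that from microfractured cells kept it. Between the adult groups Vcan differed by 0.18 ± 0.19 (adjusted p = 0.491), and by 0.84 with centred arrays (adjusted p = 0.00996).

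A ratio of the 2 core protein genes within an array does not depend on a scale factor between arrays. It is not free of the unequal background, whose part in the ratios was not tested. The log2 ratio of Vcan to Acan averaged -3.67 ± 0.21 in newborns, -2.17 ± 0.24 after microfracture and -2.0 ± 0.12 in uninjured adults (SD, n = 4, 3 and 3). Newborn ratios, at -3.86 to -3.37, did not overlap those of either adult group. They differed by -1.5 from microfractured and by -1.67 from uninjured ratios, both with p = 0.0571 in an exact 2-sided permutation test, the smallest p that 4 against 3 arrays allow. The microfractured and uninjured ratios overlapped and differed by -0.16 (exact permutation p = 0.4, where 0.1 is the smallest possible).

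The link protein gene Hapln1, which encodes the cartilage link protein, followed Acan in newborns. It read 12138, 10268, 9325 and 9377 intensity units in newborn cells, 3765, 7873 and 4632 after microfracture and 3158, 7307 and 6016 in uninjured adults. All newborn arrays were above all adult arrays, and the adult arrays spread widely and overlapped. The newborn rise was 0.98 ± 0.30 over uninjured (1.97-fold, adjusted p = 0.0139, limma) and 0.98 ± 0.30 over microfractured cells (1.98-fold, adjusted p = 0.0197). The first call ended without uninjured replicate 1, the lowest array (0.62, adjusted p = 0.0723). The second ended without newborn replicate 1, microfractured replicate 1 or microfractured replicate 3, with adjusted p up to 0.0741. The adult groups differed by -0.01 ± 0.32 (adjusted p = 0.993).

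Hapln3, a more widely expressed link protein gene beside Acan, showed no called difference. Its intensity was 514, 548, 426 and 322 in newborns, 546, 397 and 220.2 after microfracture and 608, 412 and 489 in uninjured adults. All groups overlapped, and in uninjured adults 2 of 3 arrays were above the receptor-gene floor. Differences were -0.43 ± 0.31 for microfractured against uninjured, -0.16 ± 0.29 for newborn against uninjured and 0.27 ± 0.29 for newborn against microfractured cells (adjusted p = 0.310, 0.667 and 0.499, limma). The log2 ratio of Hapln3 to Hapln1 averaged -4.48 ± 0.25 in newborns, -3.77 ± 0.88 after microfracture and -3.34 ± 0.90 in uninjured adults (SD). Newborn and uninjured ratios did not overlap (difference -1.14, exact permutation p = 0.0571), whereas newborn and microfractured ratios did (-0.71, p = 0.171). The ratio of Hapln1 to Acan overlapped between all groups, with newborn differences of 0.50 from microfractured and 0.15 from uninjured cells (exact permutation p = 0.229 and 0.8).

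Most other cartilage markers were also higher in newborn cells, but Col2a1, the main cartilage collagen gene, was lower. Of 13 chondrocyte markers, 11 were higher and 1 lower in newborn than in uninjured cells, where 25.2% of all genes were higher, and 9 were higher and 1 lower than after microfracture, where 18.4% were higher. Col2a1 was the lower one in both, at 5773 ± 1083 units in newborns, 12251 ± 1754 after microfracture and 14916 ± 3746 in uninjured adults (SD, n = 4, 3 and 3). Its newborn differences were -1.09 ± 0.22 from microfractured and -1.36 ± 0.22 from uninjured cells (adjusted p = 0.00181 and 0.000271, limma). Their summed intensity lay at 102102 to 124469 on newborn arrays, at 46479 to 50400 on microfractured arrays and at 48219 to 65218 on uninjured arrays. Markers of fibroblasts and stroma, cells known to make versican, were lower in newborn than in uninjured cells for 7 of 7 genes. They were lower than after microfracture for 4 of 7. Of all genes, 29.4% and 18.3% were lower in these comparisons. The fibroblast and stromal sums lay at 38264 to 49981 on newborn arrays, at 57941 to 108523 on microfractured arrays and at 82724 to 127269 on uninjured arrays. The part of such shifts in the results for single genes was not tested.

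Of the 3 hyaluronan synthases, Has1 and Has2 differed in pattern, and Has3 could not be told from background. Has1 read 494, 594, 553 and 412 intensity units in newborns, 1879, 1404 and 1748 after microfracture and 908, 1065 and 784 in uninjured adults. The groups did not overlap, with microfractured cells highest and newborn cells lowest. Has1 was 1.81-fold higher after microfracture than in uninjured cells (0.86 ± 0.20, adjusted p = 0.0080, limma), a call kept in 20 of 20 alternatives. In newborns it was 3.20-fold lower than after microfracture (-1.68 ± 0.19, adjusted p = 1.97e-05) and 1.77-fold lower than in uninjured cells (-0.82 ± 0.19, adjusted p = 0.00271). The last call ended with centred arrays (-0.12, adjusted p = 0.618).

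Has2, the synthase most tied to development, was instead high in newborns. It read 698, 755, 913 and 739 in newborns, 402, 943 and 659 after microfracture and 347, 325 and 400.5 in uninjured adults. All 3 uninjured arrays lay at or below their receptor-gene floor, so the size of a fold against them is uncertain. Geometric means of 772 in newborns and 630 after microfracture were 1.5 and 1.22 times the mean uninjured floor of 516. Those ratios take no account of the spread between arrays, and the microfractured array at 402 lay under 516. The fitted differences from uninjured cells were 1.08 ± 0.25 in newborns (adjusted p = 0.00278, limma) and 0.80 ± 0.27 after microfracture (adjusted p = 0.0359). The newborn call held in 20 of 20 alternatives. The microfracture call ended in 7 of 20, with adjusted p up to 0.125 without microfractured replicate 2, the highest array. Newborn and microfractured arrays overlapped and differed by 0.29 ± 0.25 (adjusted p = 0.401).

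Has3 was not tested in sorted cells because it failed the filter. Its intensity was 79.2, 88.1, 28.8 and 16.7 in newborns, 28.15, 53.0 and 34.5 after microfracture and 93.8, 66.9 and 157 in uninjured adults. No array was above its receptor-gene floor, so Has3 was not distinguishable from background in these cells.

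Cd44 changed most among the 8 genes. It read 292, 309.5, 353 and 361 intensity units in newborns, 5541, 4727 and 5261 after microfracture and 1793, 2476 and 1777 in uninjured adults. The groups were far apart, with every newborn array below every uninjured array and every microfractured array above. Cd44 was 2.58-fold higher after microfracture than in uninjured cells (1.37 ± 0.18, adjusted p = 0.00091, limma). In newborns it was 15.1-fold lower than after microfracture (-3.91 ± 0.17, adjusted p = 1.92e-08) and 5.84-fold lower than in uninjured cells (-2.55 ± 0.17, adjusted p = 2.82e-07). All 3 calls held in 20 of 20 alternatives. Of the 13 myeloid markers tested, 13 were lower after microfracture than in uninjured cells, and 13 were lower in newborn than in uninjured cells. The shares of all genes called lower there were 19.8% and 29.4%. The part of myeloid RNA in the Cd44 values was not tested.

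**Figure D1:**
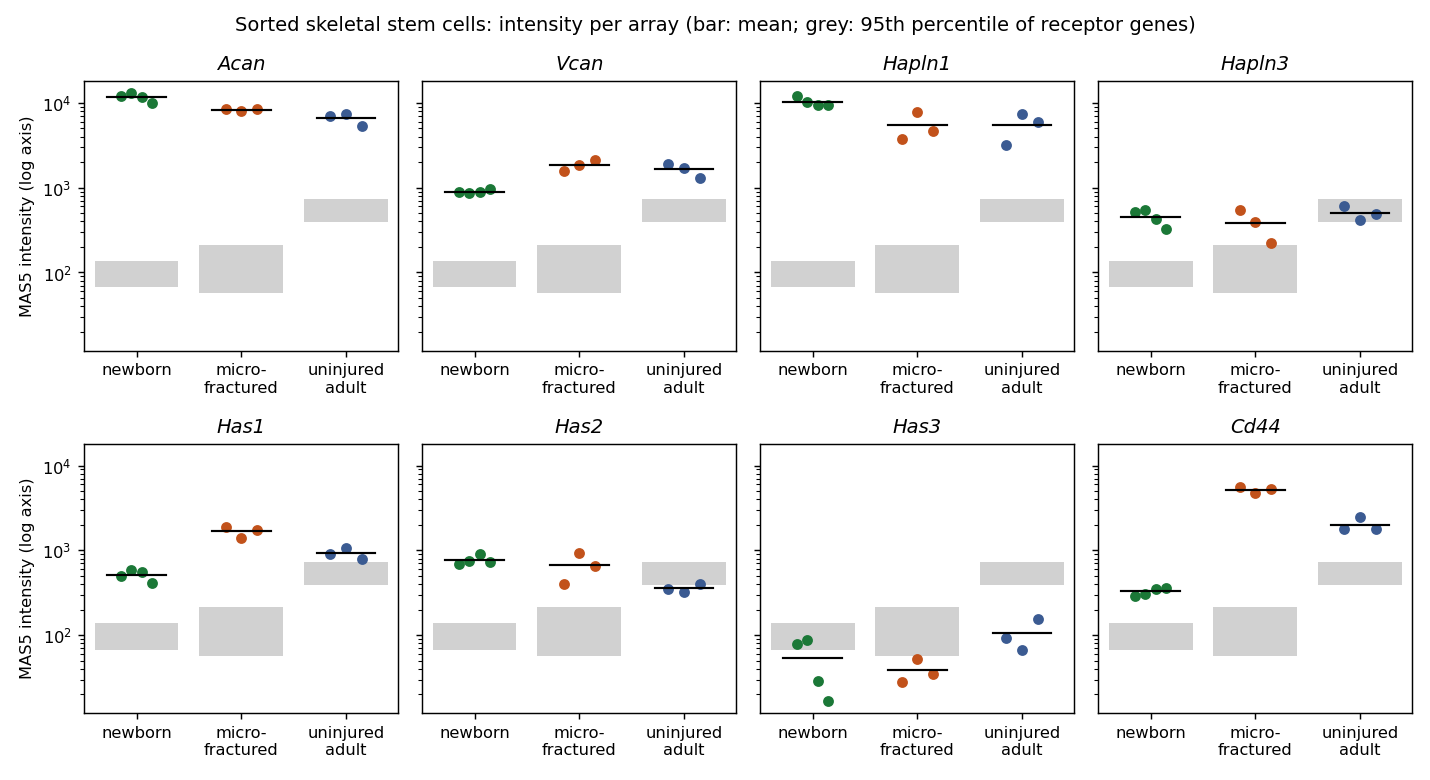
MAS5 intensity (log axis) of the 8 genes on each sorted-cell array, newborn, microfractured adult and uninjured adult from left to right, with the group mean as a bar and the range of the receptor-gene 95th percentile in grey. Cd44 in newborns sits between 292 and 361, below both adult groups, and Has2 in uninjured adults and Has3 throughout sit within or under the grey band.

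Counted over the 7 genes tested, 3 were higher and 0 lower after microfracture than in uninjured adults, where 33.1% of all genes were called, 13.3% higher and 19.8% lower. Newborn cells had 3 higher and 3 lower than uninjured adults, against 54.6% of all genes called, 25.2% higher and 29.4% lower. They had 2 higher and 3 lower than microfractured adults, against 36.7% called, 18.4% higher and 18.3% lower. The shares among the 7 were near or above these backgrounds, which with so few genes says little about them. Arrays of the groups did not overlap for 5 of the 8 genes after microfracture against uninjured, with untested Has3 among them, for 6 in newborn against uninjured and for 5 in newborn against microfractured cells. Over all genes tested, 41.1%, 61.0% and 42.8% did not overlap in these comparisons. The median differences of the 7 were 0.35, -0.16 and 0.27 in these comparisons, beside medians of -0.04, -0.02 and 0.06 over all genes. Both comparisons with uninjured cells share those 3 arrays.

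**Figure D2:**
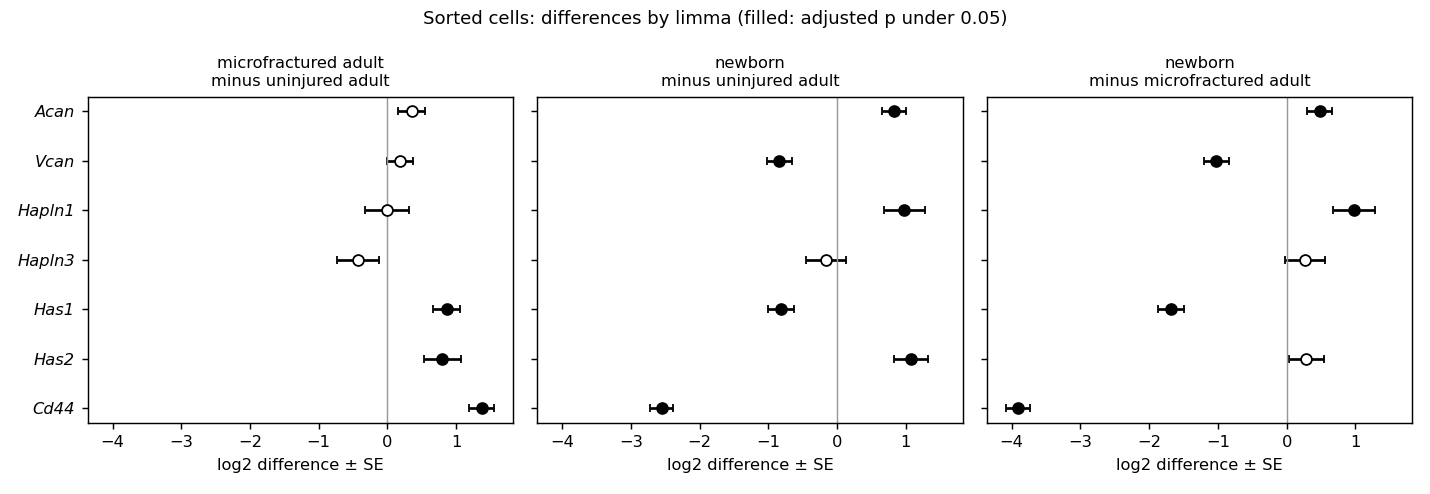
Log2 differences with limma's standard errors for the 7 tested genes in 3 comparisons of sorted cells, filled where the adjusted p was under 0.05. Has1, Has2 and Cd44 are filled after microfracture, and Acan and Hapln1 lie right of 0 and Cd44, Has1 and Vcan left of 0 in both newborn panels.

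Genes that feed, build, bind and cut this matrix were read from 5 further lists. In the supply of activated sugars and sulfate, 11 of 14 genes tested were higher and 1 lower in newborn than in uninjured cells (list median 1.10, against -0.02 over all genes and 25.2% of all genes higher). Against microfractured cells 7 of the 14 were higher and 2 lower (median 0.55, against 0.06 and 18.4% of all genes higher). Slc35d1, the transporter that carries UDP-sugars into the endoplasmic reticulum, had 3698 ± 742 intensity units in newborns, 511.1 ± 177 after microfracture and 424.1 ± 168 in uninjured adults (SD, n = 4, 3 and 3). The uninjured Slc35d1 mean lay under the mean receptor-gene floor of those arrays, 534.0, so the size of a fold against it is uncertain. Papss2, which makes the sulfate donor of chondroitin sulfate, rose by 2.01 ± 0.29 over uninjured cells (adjusted p = 0.000123, limma). After microfracture 6 genes were higher and 1 lower than in uninjured cells (median 0.45, against -0.04 over all genes and 13.3% of all genes higher). The count of higher genes varied from 2 to 12 over the alternatives, with 12 for centred arrays, 2 without uninjured replicate 1 and 3 without microfractured replicate 3. Ugp2 and Ugdh, consecutive enzymes on the way to the UDP-glucuronic acid used by HAS enzymes, rose by 2.07 ± 0.17 (adjusted p = 8.59e-05) and 1.72 ± 0.25 (adjusted p = 0.00112). Ugdh had 7774 ± 1390.0 units after microfracture and 2407 ± 803 in uninjured adults (SD), and Uap1, which makes the other hyaluronan sugar UDP-N-acetylglucosamine, rose by 1.13 ± 0.32 (adjusted p = 0.0171), a call that ended in 5 of 20 alternatives. Ugp2 was lower in newborn than in microfractured cells by -0.99 ± 0.16 (adjusted p = 0.000407).

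Enzymes that build chondroitin sulfate chains moved in both directions. Of 17 tested, 7 were higher and 3 lower in newborn than in uninjured cells, and 5 were higher and 2 lower in newborn than in microfractured cells. After microfracture 5 were higher and 1 lower than in uninjured cells. The list medians were 0.38, 0.25 and 0.57 in these comparisons, against -0.02, 0.06 and -0.04 over all genes, of which 25.2%, 18.4% and 13.3% were higher. After microfracture the count of higher genes varied from 2 with 2 groups fitted alone to 9 with centred arrays, and was 8 without microfractured replicate 1. Csgalnact1, which starts chondroitin chains, had 6594 ± 408 units in newborns, 2066 ± 515 after microfracture and 1047 ± 0.65 in uninjured adults (SD). It rose in every comparison, by 2.63 ± 0.17 in newborns over uninjured, by 1.69 ± 0.17 in newborns over microfractured and by 0.94 ± 0.18 in microfractured over uninjured cells (adjusted p = 2.26e-07, 9.22e-06 and 0.00367, limma). Chst11, a chondroitin 4-O-sulfotransferase needed in mouse cartilage, rose by 1.98 ± 0.19 in newborn over uninjured cells (adjusted p = 4.50e-06). Fam20b and Chsy1, for linker phosphorylation and chain growth, rose by 1.69 ± 0.17 and 2.06 ± 0.27 there (adjusted p = 8.86e-06 and 5.51e-05). Chst12 was higher and Chst13 lower after microfracture than in uninjured cells, where they averaged 123.9 and 568.2 units, within or close to the background of those arrays.

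Genes for other hyaluronan-binding proteins were called in both directions. Of 11 tested, 3 were higher and 5 lower after microfracture than in uninjured cells, 1 was higher and 4 lower in newborn than in uninjured cells, and 2 were higher and 3 lower in newborn than in microfractured cells. Their medians were -0.92, -0.67 and -0.01, against -0.04, -0.02 and 0.06 over all genes. Of all genes, 13.3%, 25.2% and 18.4% were higher and 19.8%, 29.4% and 18.3% lower in these comparisons. After microfracture the count of lower genes varied from 0 with the stricter filter to 7 with no filter. It was 1 with centred arrays and 1 to 3 when newborn replicate 1, microfractured replicate 3 or any uninjured array was left out. Centred arrays gave 4 higher and 2 lower in newborn against uninjured cells. Layn, a membrane hyaluronan receptor, had 1940.0 ± 469 units after microfracture and 581.8 ± 93.5 in uninjured adults (SD; 1.69 ± 0.21, adjusted p = 0.000691, limma). Itih5, of the inter-alpha-trypsin inhibitor family, rose by 1.42 ± 0.35 (adjusted p = 0.00987), and Tnfaip6, which moves heavy chains of that family onto hyaluronan, by 2.40 ± 0.62 (adjusted p = 0.012). Tnfaip6 averaged 5660.0 ± 4800.0 after microfracture, so its arrays differed widely, and its call ended without uninjured replicate 1. Layn did not differ detectably between newborn and uninjured cells (0.03 ± 0.20, adjusted p = 0.917). Its uninjured mean was close to the mean receptor-gene floor of those arrays, 534.0, whereas the newborn floor was 107.8. The size of Layn differences from uninjured cells is therefore uncertain. Itih5 was lower in newborns than in both adult groups, by -2.66 ± 0.33 against microfractured and -1.24 ± 0.33 against uninjured cells (adjusted p = 4.41e-05 and 0.00647).

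Among genes that remove the matrix, Cemip and Adamts5 had the most marked falls in newborns. Of 7 hyaluronan-breakdown genes tested, 0 were higher and 3 lower in newborn than in uninjured cells (median 0.10, against -0.02 over all genes and 29.4% of all genes lower). Against microfractured cells 0 were higher and 3 lower (median -0.48, against 0.06 and 18.3% of all genes lower). With centred arrays the comparison with uninjured cells had 4 higher and 1 lower, so the direction of this list there depended on the scale. Cemip, which is needed for hyaluronan depolymerisation, had 146.0 ± 23.3 units in newborns, 1035 ± 294 after microfracture and 1222 ± 152 in uninjured adults (SD), a newborn difference of -2.94 ± 0.22 from uninjured cells (adjusted p = 6.02e-07, limma). Of 5 genes for cleavage of aggrecan and versican or its inhibition, 1 was higher and 4 lower in newborn than in uninjured cells, and 0 were higher and 2 lower than after microfracture (medians -1.33 and -0.68). The first count was 2 lower with centred arrays. Of all genes, 25.2% and 18.4% were higher and 29.4% and 18.3% lower in these comparisons, with medians of -0.02 and 0.06. Adamts5, the main aggrecanase of mouse cartilage, had 117.3 ± 24.3 units in newborns, close to their floor, 2242 ± 555 after microfracture and 2746 ± 349 in uninjured adults (SD). Its newborn differences were -4.07 ± 0.21 from microfractured and -4.38 ± 0.21 from uninjured cells (adjusted p = 3.04e-08 and 1.91e-08). Timp3, the tissue inhibitor of these enzymes, was also lower in newborns, by -1.63 ± 0.17 and -1.92 ± 0.17 (adjusted p = 1.02e-05 and 2.40e-06). After microfracture 0 of the 5 cleavage genes passed (0 higher, 0 lower), where 33.1% of all genes were called, 13.3% higher and 19.8% lower. Of the breakdown genes, Hexa and Gusb, lysosomal glycosidases, rose there by 0.91 ± 0.27 and 0.88 ± 0.27 (adjusted p = 0.0216 and 0.0254, limma), calls that ended in 5 and 6 of 20 alternatives.

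**Figure D3:**
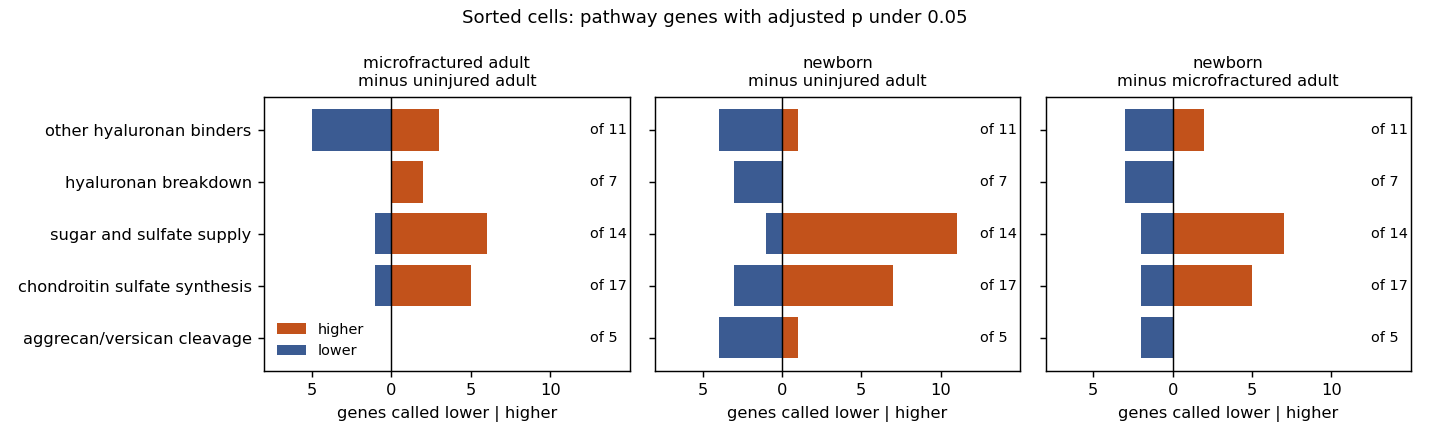
Number of genes called higher (right of 0) and lower (left of 0) in each of 5 pathway lists in sorted cells, with the number tested at the right edge of each panel. Sugar and sulfate supply has 11 of 14 higher in newborn over uninjured cells, against 25.2% of all genes. Cleavage has 0 of 5 called after microfracture, where 33.1% of all genes were called.

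The genes with profiles nearest to each of the 7, over 10 arrays and 10874 genes, were ranked by the root mean square of the difference between profiles centred on their own mean. For Hapln1 the nearest was Col11a1, a cartilage collagen gene (0.13 log2 units, against 0.62 for the spread of Hapln1 itself), then Gdf10. For Cd44 they were Creb5 (0.25, against a spread of 1.68), Epdr1 and Inhba, and for Has1 they were Vcl (0.13, against 0.72) and Tdrd7. Acan lay nearest to Eif4h (0.08, against 0.38), Vcan to Pttg1 (0.12, against 0.49), Hapln3 to Usp31 (0.14, against 0.40) and Has2 to Acer3 (0.13, against 0.54). In bulk tissue the nearest to Has2 was Bmpr1a, a BMP receptor gene, over 11 arrays and 14260 genes (9.09 score points, against a spread of 35.28). Such likeness over shared arrays is a description.

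Bulk tissue was given as an activity score from -100 to 100, whose definition was not given in the sources used here, so differences are in score points and no fold was formed. In bulk RNA, fewer cells of a type and less RNA per cell cannot be told apart. Scores of marrow cell markers differed: the mean score of 15 myeloid markers lay at -35.6 to -12.3 on newborn, at 40.6 to 44.1 on microfractured and at 46.9 to 60.7 on uninjured arrays. Some bulk arrays stood apart, since 74 receptor genes had median scores of -11.8, 89.5 and 30.7 on the newborn arrays and 84.5, -14.3 and 41.8 on the microfractured arrays, against -29.4 to -0.6 on the uninjured arrays. The 95th percentile of these receptor genes was 93.4, 99.4 and 95.3 on newborn arrays, 99.3, 95 and 97.2 on microfractured arrays and 78.5 to 97.6 on uninjured arrays, close to the upper bound. Of the 8 genes, 7 were tested, and Has1 failed the filter.

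Has2 was the gene called in bulk tissue. Its score was 90.4, 94.6 and 91.9 in newborns, 41.8, 38.3 and 49.8 after microfracture and -13.0, 23.6, 36.8, 40.0 and -9.64 in uninjured adults. Newborn scores were above all adult scores, and microfractured and uninjured scores overlapped. On all 3 newborn arrays Has2 nevertheless lay under the receptor-gene 95th percentile, as it did on the adult arrays. The newborn difference from uninjured tissue was 76.77 ± 18.14 points (adjusted p = 0.0310, limma), the 1 call among 7 where 6.35% of all 16550 genes were called. The call was lost in 8 of 22 alternatives with the difference at 50.14 points or more in those, among them the fit without the 2 arrays with the highest receptor-gene scores (75.62, adjusted p = 0.102) and the fit without any 1 newborn array. A second Has2 probe set, 1418678_at, read 18.1, -21.0 and 21.1 in newborns, -3.94, -48.1 and -6.99 after microfracture and -70.5, -25.0, -71.2, -32.6 and -21.2 in uninjured adults. Its newborn scores were above all uninjured scores, the lowest only just, and the difference of 50.14 ± 18.96 did not pass (adjusted p = 0.150, limma). Against microfractured tissue the newborn difference of the first probe set, 49.01 ± 20.28, did not pass (adjusted p = 0.275), nor did the other 6 genes, where 1.46% of all genes were called. Over the 7 genes, newborn groups did not overlap uninjured groups for 3 (16.3% of all genes) and microfractured groups for 4 (19.7% of all genes).

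Acan in bulk pointed the same way as in sorted cells, with 93.8, 97.5 and 97.5 in newborns, -2.76, 56.9 and 65.8 after microfracture and 65.1, -0.18, 53.6, 25.4 and 41.9 in uninjured adults. All newborn scores were above all adult scores and close to the upper bound, and 2 of 3 exceeded the receptor-gene 95th percentile. The difference from uninjured tissue was 59.09 ± 20.08 and did not pass (adjusted p = 0.115, limma), and it passed on a log-odds scale of the score (adjusted p = 0.0129). The 13 chondrocyte markers moved in parallel, with mean scores of 70.2 to 74.3 on newborn, 6.2 to 18.1 on microfractured and 10.9 to 30.1 on uninjured arrays, and their part in the Acan and Has2 differences was not tested. The highest Hapln1 probe set, 1438020_at, was at 87.8 or above on every bulk array, close to the upper bound. Its newborn scores of 95.2, 100 and 94.5 lay just above all adult scores, which reached 94.2, and the difference of 3.84 ± 3.49 from uninjured tissue did not pass (adjusted p = 0.587, limma). Another, 1421633_a_at, read 90.6, 92.2 and 91.8 in newborns, -4.92, 15.7 and 27.7 after microfracture and 48.1, 20.1, 41.9, 28.7 and -4.82 in uninjured adults. Newborn scores were above all adult scores there, and when every probe set was fitted the difference from uninjured tissue was 64.76 ± 17.63 (adjusted p = 0.0520).

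Vcan was covered by 8 probe sets, which differed in the size of the newborn difference from uninjured tissue but not in its sign. The highest, 1447887_x_at, read 91.98, 79.1 and 79.4 in newborns, 15.5, 66.8 and 72.7 after microfracture and 75.4, -16.4, -2.42, 51.9 and 89.0 in uninjured adults, with wide overlap of newborn and uninjured scores (44.01 ± 25.75, adjusted p = 0.370, limma). Probe set 1427257_at read 73.2, 42.9 and 83.9 in newborns, -8.50, 25.5 and 29.0 after microfracture and -33.6, -5.43, -17.2, -11.6 and -39.6 in uninjured adults. Its newborn scores were above all adult scores, by 88.16 ± 18.15 points over uninjured tissue (adjusted p = 0.0165 with every probe set fitted, where 6.59% were called). On every bulk array the scores of both these probe sets lay under the receptor-gene 95th percentile. The newborn score of 42.9 on 1427257_at also lay under the receptor-gene median of its array, 89.5. The newborn Vcan difference from uninjured bulk tissue was positive on all 8, from 0.55 (1459767_x_at) to 106.15 points (1447586_at). Only 1427257_at passed. In sorted cells the difference was negative. Against microfractured bulk tissue the sign was mixed, from -27.5 (1459767_x_at) to 51.35 points (1427257_at). The 7 fibroblast and stromal markers also had higher mean scores in newborn bulk tissue (74.6 to 80.8) than after microfracture (56.0 to 65.0) or in uninjured adults (45.4 to 62.9), whereas in sorted cells they were lowest in newborns. The difference between both tables was not tested, and probe sets and gene-level values need not read the same transcripts.

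Cd44 and the remaining genes did not pass in bulk tissue. The highest Cd44 probe set read -23.1, 97.6 and 87.7 in newborns, 96.2, 98.0 and 98.2 after microfracture and 80.5, 39.9, 99.5, 83.8 and 72.7 in uninjured adults, so 1 newborn array set its mean apart. On all 4 Cd44 probe sets the newborn difference from uninjured tissue was negative, from -37.72 to -1.02 points. All newborn scores lay below all uninjured scores on 1423760_at (-20.0) and 1434376_at (-37.72). Neither passed with every probe set fitted (adjusted p = 0.519 and 0.284, limma). Has3 read -49.3, -3.13 and -91.6 in newborns, 57.2, -11.6 and 39.5 after microfracture and -99.1, -95.1, -37.3, -95.3 and -62.7 in uninjured adults. All microfractured scores were above all uninjured scores, and the mean difference of 106.28 ± 25 did not pass (adjusted p = 0.284, limma). That comparison called 0 of 16550 genes (0.0%), with 1621 genes and 1 of the 7, Has3, at an unadjusted limma p under 0.05. Groups did not overlap there for 1 of the 7, again Has3, against 9.55% of all genes tested. The 2 high Has3 scores were on the 2 microfractured arrays with high receptor-gene scores, and their part in the difference was not tested. Without microfractured replicate 1 the Has3 difference was 91.89 (adjusted p = 0.833), and without both arrays of the highest receptor-gene scores Has3 failed the filter. Hapln3 spanned -73.6 to 95.8 on newborn, -60.6 to 87.8 on microfractured and -99.1 to 33.6 on uninjured arrays. Has1 spanned -82.3 to -58.65 on newborn, -68.4 to -5.11 on microfractured and -88.3 to -61.8 on uninjured arrays, so all its scores were negative. Among the genes of the 5 lists, Papss1 (119.68 ± 15.11, adjusted p = 0.00215) and Tnfaip6 (71.79 ± 18.18, adjusted p = 0.0415) were higher in newborn than in uninjured tissue. Papss1 was also higher than after microfracture (117.76 ± 16.89, adjusted p = 0.00771, limma). These bulk calls all ended with the replicate block, where 0 genes were called in either comparison. The call against microfractured tissue also ended with 2 groups fitted alone, again with 0 genes called.

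**Figure D4:**
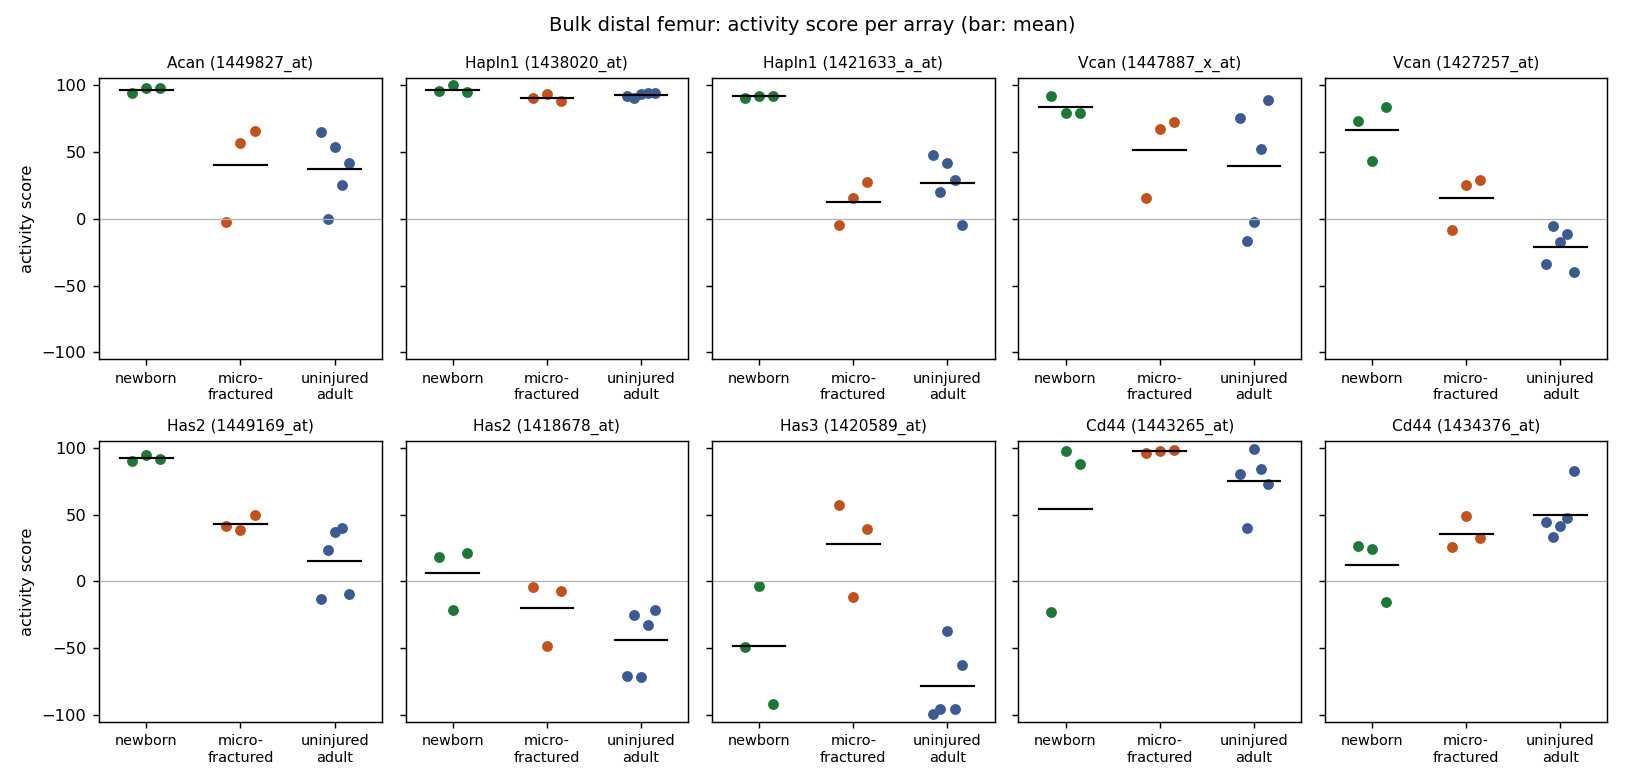
Activity score of single probe sets on each bulk array for newborn, microfractured adult and uninjured adult tissue from left to right, with the group mean as a bar; genes with several probe sets show their highest-scoring one and the other with the smallest p. Acan and Has2 (1449169_at) in newborns sit between 90.4 and 97.5, above all adult arrays. For Vcan and Cd44 the size and overlap of the newborn difference from uninjured tissue depend on the probe set.

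The arrays of mSSCs from factor-treated microfractured joints asked how BMP2 or VEGFR1 changed these cells, with 1 array per treatment and hence no test. On all 3 arrays 4 of the 8 genes were near the upper bound on the probe set with the highest mean. That choice of probe set favours high scores. Cd44 scored 100 on each, Vcan 97.86 on each, Has2 96.6 with BMP2, 95.9 with VEGFR1 and 94.5 with PBS, and Hapln1 90.8, 92.1 and 91.7 in the same order. Other probe sets were lower for Has2, Hapln1 and Vcan. In that order of arrays, Has2 1418678_at scored 48.65, 40.64 and 54.75, and Hapln1 1421633_a_at 74.4, 64.49 and 61.1. The other Vcan probe sets scored 76.77 or less, and every Cd44 probe set 83.12 or more. Acan scored 49.6 with BMP2, 29.9 with VEGFR1 and 39.1 with PBS, which differ by less than the 50 points used as a size rule.

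Has1 had the highest BMP2 difference from PBS among the 8. It scored 74.7 with BMP2, -3.78 with VEGFR1 and -36.5 with PBS, 111.24 points higher with BMP2 than with PBS, a difference reached by 116 of 20889 genes, Has1 included. Has3 scored -45.8 with BMP2, -10.7 with VEGFR1 and -96.9 with PBS, so both factors were above PBS by at least 50 points (51.07 and 86.25). All 3 Has3 scores lay under the receptor-gene 95th percentiles of their arrays, 40.4 with BMP2, 66.2 with VEGFR1 and 75.4 with PBS, as did Has1 with VEGFR1 and PBS but not with BMP2. Hapln3 scored 10.2 with BMP2, 66.3 with VEGFR1 and 25.3 with PBS. At the 50-point rule, 2 of 8 genes were past it for BMP2 over PBS (11.6% of all genes), 1 of 8 for VEGFR1 over PBS (10.6%) and 2 of 8 for BMP2 over VEGFR1 (11.7%), where Has1 was higher and Hapln3 lower with BMP2. Single arrays differ by their own error as well as by treatment, and that error could not be estimated. Other probe sets of Hapln1, Has2 and Cd44 differed by at most 14.1 points between either factor and PBS. Those of Vcan differed more: 1433043_at scored -96.0 with BMP2, -3.45 with VEGFR1 and -46.0 with PBS, and 1459767_x_at was 31.37 points higher with BMP2 than with PBS. The myeloid markers had mean scores of -62.8 with BMP2, -67.5 with VEGFR1 and -69.6 with PBS.

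**Figure D5:**
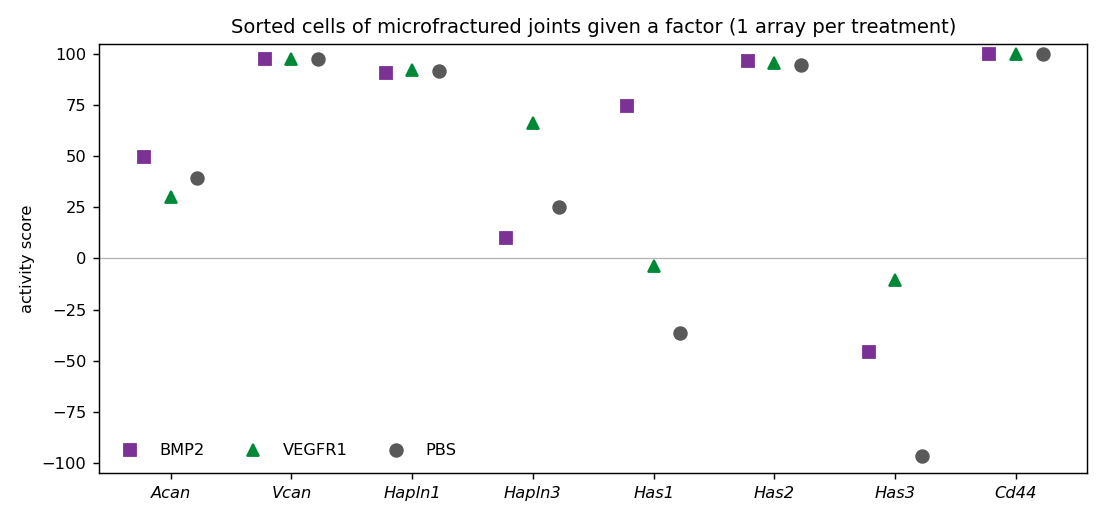
Activity score of the 8 genes on the single arrays of mSSCs from microfractured joints given BMP2, VEGFR1 or PBS. Has1 is at 74.7 with BMP2, above both other arrays, while Cd44, Vcan, Has2 and Hapln1 lie at 90.8 or above on all 3.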

How the data were processed

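Affymetrix arrays of 10 replicated sorted-cell samples, 11 bulk samples and 3 factor-treated samples were used, grouped by title. For the sorted cells the authors deposited linear MAS5 intensity for 18052 genes on a custom probe definition, per the file headers. The name MAS5 comes from the submitters' processing notes, without version or scaling target. Trimmed means (2%) of 490.3 to 494.9 on all 10 arrays show a shared target. For the others the authors deposited an activity score per probe set, per the file headers, with no formula in the sources used here. RNA was amplified in 2 rounds, per the labels' protocols, which raises the error of low values. The number of arrays limits the precision.

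Symbols were updated through a RefSeq table (GRCm38.p6), which matched 17994 rows. Of 45101 scored probe sets, 38557 carried 1 symbol, and the one with the highest mean stood for a gene. The filter kept genes above the table median (intensity 250.4, score -16.4) on 3 or more arrays. A gene high in 1 group could pass. Log2(intensity + 16), or the score as deposited, was fitted with limma 3.58.1 under R 4.3.3 (3 groups jointly, eBayes with trend, 2-sided), with Benjamini-Hochberg adjustment over all genes kept at 0.05. On simulated sorted-cell data the fit called 170 of 200 genes changed by 2 log2 units, with 5 false calls. On simulated bulk data it called 65 of 200 genes changed by 100 points, with 3 false calls. A bulk difference that did not pass is therefore no sign of an unchanged gene. Folds on this scale understate changes of low genes. Ratios used exact permutation tests. The size rule of 50 points served the factor arrays.

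The 8 genes, the lists and the tests were chosen with earlier results of these data known. Named genes were the 8, up to 4 genes with the smallest p per list and the nearest profiles. Some under this rule were left out for length, and 1 is not reported here. Alternatives were other pseudocounts, filters, scales, blocks, weights, probe sets and leaving out each array.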

Additional observations from a re-analysis of the deposited data

Results flagged for a closer look

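Signs that were opposite in sorted cells and bulk tissue flagged 2 genes, with the difference between the tables not tested in any case. For Has3 (probe set 1420589_at), every microfractured bulk array was above every uninjured bulk array, by 106.28 points, while every microfractured sorted array was below every uninjured sorted array. The sorted intensities were all under the receptor-gene floor. For Vcan, newborn bulk arrays were all above uninjured bulk arrays on probe sets 1427256_at (62.81 points), 1427257_at (88.16 points) and 1447586_at (106.15 points), while newborn sorted cells were all below uninjured sorted cells. Newborn bulk arrays were also all above microfractured bulk arrays on probe sets 1427257_at (51.35 points) and 1447887_x_at (31.82 points), with newborn sorted cells again all lower. The bulk scores of 1427257_at and 1447887_x_at were all under the receptor-gene 95th percentile of their arrays. Dixon's gap test, run only on groups of 4 or 5 arrays, flagged no array for any of the 8 genes. Groups of 3 arrays were outside it, so the Cd44 score of -23.15 in newborn bulk tissue was not examined.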

How the results depend on the processing

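Of 14 called differences in sorted cells, 8 kept their direction and call in every alternative run: those of Cd44 and Has1 (except Has1 in newborn against uninjured cells), Vcan in newborn against microfractured cells, and Acan and Has2 in newborn against uninjured cells. With centred arrays 5 of the 7 tested genes were called after microfracture against uninjured, in place of 3. Leaving out 1 array gave 3 to 5 calls in newborn against microfractured cells, in place of 5, the lowest without newborn replicate 1, microfractured replicate 1 or microfractured replicate 3. In newborn against uninjured bulk tissue, in place of 1 call, there were 2 on the log-odds scale, with probe sets averaged or with every probe set, and 0 with the replicate block, with 2 groups fitted alone, with the probe set of largest SD or without the 2 arrays of high receptor-gene scores. Leaving out 1 array gave 0 to 1 there, the lowest without uninjured replicate 2 or any newborn array. Has3 failed the filter without those 2 arrays.

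No called difference changed sign. Of 417 values in sorted cells and 456 in bulk tissue, 11 and 10 changed sign without a call. With centred arrays these were Hapln1 and Hapln3 after microfracture (0.65 and 0.22), Hapln3 in newborn against uninjured cells (0.55) and Acan in bulk after microfracture (-0.83). With quantile normalization they were Hapln3 in newborn against uninjured cells (0.04) and Vcan after microfracture (-0.20). Leaving out 1 array, Hapln1 after microfracture ranged from -0.36 to 0.24, Hapln3 in newborn against microfractured cells from -0.07 to 0.56, and Has2 there from -0.03 to 0.57. In bulk tissue, Acan and Vcan after microfracture ranged from -10.12 to 24.18 and from -1.78 to 30.29, Cd44 in newborn against uninjured from -43.00 to 17.35, and Hapln3 in newborn against microfractured from -38.31 to 59.68. The ratio of Hapln1 to Acan in newborn against uninjured cells ranged from -0.26 to 0.39. That of Hapln3 to Hapln1 after microfracture ranged from -0.94 to 0.07, and was 0.03 with quantile normalization. The causes were not tested.

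Counts over all genes moved too. After microfracture 3606 genes were called in sorted cells, 6242 with no filter, 1742 with a filter at the 75th percentile, 5811 with centred arrays, 2293 with 2 groups alone and 1806 to 4150 leaving out 1 array. In newborn against uninjured cells 5945 became 9549 and 3369 with those filters, and in newborn against microfractured cells 3997 became 2628 with the stricter one. In bulk tissue, newborn against uninjured had 1051 calls, 0 with the replicate block and 591 to 1037 leaving out 1 array. Newborn against microfractured tissue had 242 calls, 144 on the log-odds scale, 141 with the stricter filter, 417 with no trend, 405 with probe sets averaged, 0 with the replicate block or 2 groups alone, and 73 to 336 leaving out 1 array. Microfractured against uninjured tissue had 0, 2 with 2 groups alone and up to 64 leaving out 1 array. Same-numbered arrays did not deviate together (correlations of -0.043 to 0.278 in sorted cells and -0.222 to 0.116 in bulk), so the replicate block was not used for pairing. Of 50 named pathway differences in sorted cells 38 kept their call in every alternative. Both added choices came after seeing the data, fitting every probe set, and leaving out the arrays of high receptor-gene scores.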
